A study of Mus musculus with 15 samples.

Results

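Liver allografts removed on day 5 after transplantation were compared with syngeneic liver grafts removed on the same day. Among the 5 groups of 3 male mice in the series, which holds 15 arrays, this is the pair matched for the day after grafting, and its 6 arrays were chosen by their titles. In the allografts, livers of B10.BR mice (H2-Kk) were placed in B10.D2 recipients (H2-Kd), which differ from them at the major histocompatibility complex, and per the study's methods no immunosuppressant was given. The strain entry of the syngeneic arrays names this same allogeneic pair, whereas their titles, source names and descriptions call them syngeneic, and which strain these grafts came from is not stated. Neither group is an unoperated liver, since both consist of transplanted livers on day 5, and the mice of a group were separate animals. Total RNA from each whole graft, labeled with Cy3, was put on an Agilent mouse miRNA array of its own. In whole tissue, fewer cells of a type and less of an RNA per cell cannot be told apart.

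MicroRNAs (miRNAs) are short RNAs cut from hairpin transcripts, often with a passenger strand from the other arm of the hairpin. Loaded on an Argonaute protein, a miRNA pairs with messenger RNAs mainly through its seed, bases 2 to 8 from the 5′ end, and lowers their stability and translation. Some miRNAs are close to specific for a cell type. Hepatocytes are known for miR-122, blood cells of all lineages for the miR-142 hairpin, granulocytes and monocytes for miR-223, activated lymphocytes and macrophages for miR-155, and erythroid cells for miR-451.

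The mature sequences below, in lower case with the seed in capitals, are those of RefSeq (GRCm38.p6), which held a mature sequence for 24 of the 26 miRNAs called different here. The members of the leukocyte list that rose do not share a seed with each other.
miR-342-3p: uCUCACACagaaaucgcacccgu
miR-142-3p: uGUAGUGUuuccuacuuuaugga
miR-142-5p: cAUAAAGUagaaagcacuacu
miR-223: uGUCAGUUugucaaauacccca
miR-155: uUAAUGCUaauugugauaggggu
miR-146a: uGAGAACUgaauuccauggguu
miR-652: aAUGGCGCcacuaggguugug

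Other miRNAs called higher belong to families in which the members share a seed and differ further along, and a pair of the relatives is shown beside each other because the arrays gave different changes for some of them. The seed AAAGUGC is that of miR-20a, miR-20b, miR-93 and miR-106b, AUUGCAC that of miR-25 and miR-92a, AGCAGCA that of miR-15b, miR-15a and miR-16, UCACAGU that of miR-27a and miR-27b, and GAGGUAG that of let-7i and let-7g.
miR-20a: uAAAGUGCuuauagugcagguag
miR-20b: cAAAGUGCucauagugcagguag
miR-93: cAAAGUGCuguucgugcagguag
miR-106b: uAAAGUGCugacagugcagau
miR-25: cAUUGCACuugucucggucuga
miR-92a: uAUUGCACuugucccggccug
miR-15b: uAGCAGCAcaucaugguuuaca
miR-15a: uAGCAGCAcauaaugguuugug
miR-16: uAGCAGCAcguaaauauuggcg
miR-27a: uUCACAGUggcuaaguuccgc
miR-27b: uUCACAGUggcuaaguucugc
let-7i: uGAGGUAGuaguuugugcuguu
let-7g: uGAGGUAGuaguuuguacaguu

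Among the miRNAs called lower, miR-101b carries the same stretch as miR-101a moved by 1 base, so that their seeds by position differ, while miR-30a and miR-30e differ at 1 of 22 bases.
miR-101b: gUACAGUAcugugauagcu
miR-101a: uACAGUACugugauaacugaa
miR-30a: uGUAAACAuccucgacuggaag
miR-30e: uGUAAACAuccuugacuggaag
miR-194: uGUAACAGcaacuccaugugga
miR-148a: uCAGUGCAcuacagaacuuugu

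Each array carried 567 mouse miRNAs, measured by 1 to 4 probes each. A miRNA counted as detected on an array when 1 of its probes had a share of at least 0.5 of its spots flagged well above background. Detected miRNAs numbered 71 to 102 (median 79) on the syngeneic arrays and 84 to 114 (median 111) on the allograft arrays. The signal of each miRNA was divided by the 75th percentile of its array, taken over the 52 miRNAs detected on all 15 arrays, and put on the log2 scale, here called the scaled signal (log2). This percentile was 395 to 616 intensity units on the syngeneic arrays, and 886, 949 and 457 units on allograft replicates 1, 2 and 3, so that replicate 3 lay within the syngeneic range. Signals below a floor of -5.21 were raised to it. Replicate 1 of the allografts of day 100, which enters the estimate of the spread, was noisier than the rest. The scanner software put its additive error at 13.1 in units of intensity, while the other arrays had 2.67 to 3.66. The number of arrays limits the precision, and standard errors of the log2 fold changes had a median of 0.24.

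The arrays lay on 2 slides. The second slide held the 3 allograft arrays of day 5 together with syngeneic replicate 3, and syngeneic replicates 1 and 2 were on the first. The comparison is therefore given without the slide and with the slide as a block in the fit. With the block, each estimate equals the difference between the mean of the allografts and syngeneic replicate 3, which is also the difference within the second slide.

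At an adjusted p (limma, Benjamini-Hochberg) under 0.05, 26 of the 103 tested miRNAs were called (25.2%), of which 19 were higher (18.4%) and 7 lower (6.80%) in the allografts. The allograft arrays lay all above the syngeneic arrays for 22 tested miRNAs (21.4%) and all below for 9 (8.74%), together 31 (30.1%). Of the 26 miRNAs called, 23 did not overlap between the groups, and miR-188-5p, miR-451 and miR-212 did. With 3 arrays against 3, an exact permutation test cannot give a two-sided p below 0.1. With the slide as a block, limma called 5 miRNAs (4.85%), namely miR-342-3p, miR-223, miR-30a, miR-194 and miR-148a, and all 26 kept their sign. The split between higher and lower depended on the scaling. It was 25 higher and 0 lower without scaling, 21 and 4 with median scaling, and 9 and 1 with the 75th percentile over all mouse miRNAs. The median log2 fold change of all tested miRNAs was 0.12, and 0.54 without scaling. It was -0.28 with a normexp background correction, under which the median of the 19 miRNAs called higher went from 1.04 to 0.15, with 12 still positive and 2 called. The 7 called lower stayed negative with it, and 3 of them were called.

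**Figure D1:**
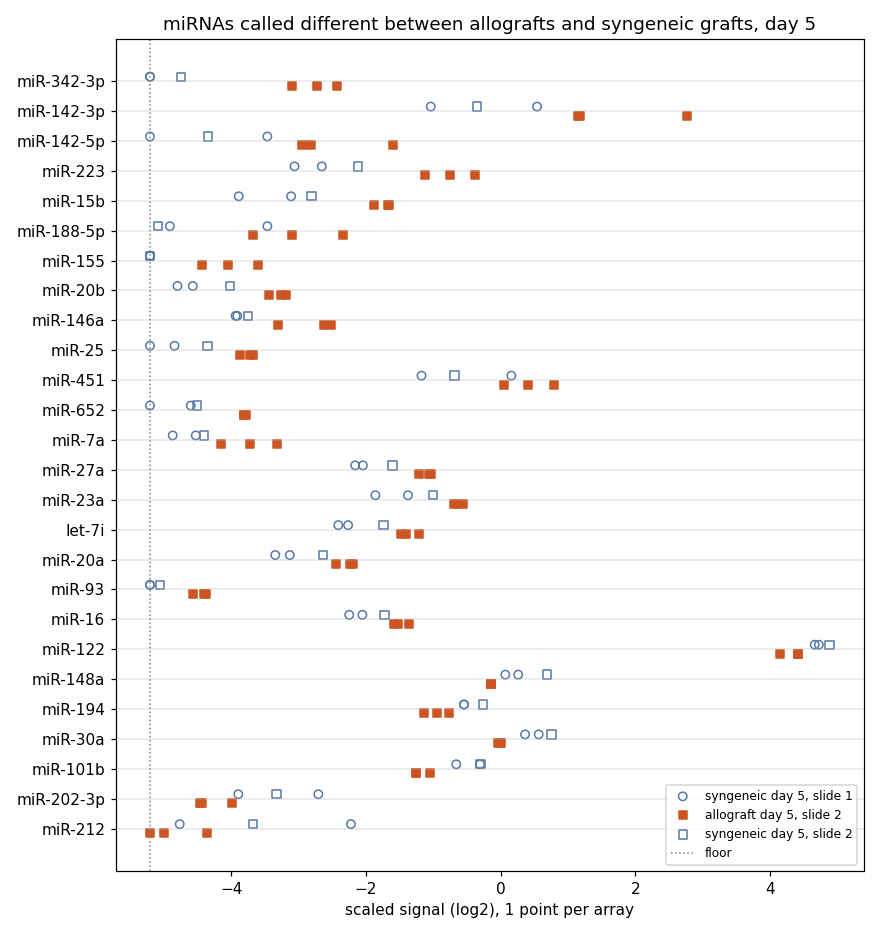
Scaled signal (log2) on each of the 6 arrays for the 26 miRNAs called different, ordered by fold change. Open symbols are syngeneic grafts (circles on the first slide, square on the second), filled squares are allografts, and the dotted line is the floor at -5.21. The symbols of both groups stand apart except for miR-188-5p, miR-451 and miR-212.

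The leukocyte list held 11 miRNAs, of which 7 were tested, and all 7 were called higher in the allografts. Their log2 fold changes were 0.97 to 2.30 (median 1.86, against 0.12 for all tested miRNAs). Of all 103 tested miRNAs, 18.4% were called higher and 61 had positive log2 fold changes. The 7 calls held when each array was left out in turn, and 6 held with quantile normalization, with the 75th percentile over all mouse miRNAs or with the floor divided by 4. Of the 7, 3 were detected on all syngeneic arrays, and the rest passed the filter through allograft groups. With miRNAs detected on all 15 arrays, 3 members were tested and 3 called. The number called was 2 with no filter on dim miRNAs, 1 with only the 2 groups in the fit and 1 by the methods' t-test once adjusted. With normexp the list's median fell to 0.29 and 2 members were called, miR-142-3p (1.71) and miR-223 (0.91). The others then stood at 0.29 for miR-342-3p and miR-142-5p, 0.043 for miR-146a, -0.076 for miR-155 and -0.18 for miR-652. The other 4 members, miR-150, miR-146b, miR-181a and miR-181b, were not detected on any of the 6 arrays. The summed scaled signal of the list, on the linear scale, was 0.743 to 1.78 on the syngeneic arrays and 3.30 to 8.44 on the allograft arrays. With the slide as a block the 7 remained positive (median 1.37, against -0.09 for all tested miRNAs), and 2 of them were called.

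MiR-342-3p, which is encoded within the span of Evl (Mir342, chr12:108658620-108658718, + strand) and is known from lymphoid cells, showed the largest log2 fold change of the miRNAs called. Its scaled signal (log2) was -5.21, -5.21 and -4.75 on the syngeneic arrays, of which 1 detected it, and -3.10, -2.73 and -2.43 on the allograft arrays. The groups stood apart, with syngeneic replicates 1 and 2 at the floor. This was a log2 fold change of 2.30 (standard error 0.20, limma, adjusted p = 4.3e-06), a 4.93-fold rise whose size depends on the floor. Within the second slide this difference was 1.99, and the call held in the fit with the block (adjusted p = 0.00082, and 4.7e-07 to 0.17 across the alternative settings).

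The miR-142 hairpin (Mir142, chr11:87756864-87756927, + strand) is transcribed in blood cells, and both of its arms rose. For miR-142-3p the scaled signal (log2) was -1.04, 0.54 and -0.35 on the syngeneic arrays and 1.14, 1.18 and 2.77 on the allograft arrays. The lowest allograft array lay above the highest syngeneic array. This was a log2 fold change of 1.98 (standard error 0.43, adjusted p = 0.0071), or 3.95-fold. MiR-142-5p stood at -5.21, -3.47 and -4.35 on the syngeneic arrays, of which 2 detected it, and at -2.82, -2.94 and -1.60 on the allograft arrays. Its log2 fold change came to 1.89 (standard error 0.46, adjusted p = 0.0089), and replicate 3 was the highest allograft array for both arms. The log2 ratio of the arms differed by 0.10 between the groups, which overlapped in it, with miR-142-5p at the floor on syngeneic replicate 1. The block left 2.05 for miR-142-3p and 1.90 for miR-142-5p, which did not pass the threshold with their standard errors of 0.64 and 0.68.

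MiR-223, a miRNA of granulocytes and monocytes encoded on the X chromosome (Mir223, chrX:96242817-96242926, + strand), stood at -3.06, -2.66 and -2.12 on the syngeneic arrays. On the allograft arrays it stood at -0.75, -1.12 and -0.38, with no overlap. This was a log2 fold change of 1.86 (standard error 0.24, adjusted p = 0.00018), or 3.64-fold. The within-slide value was lower, at 1.37, because syngeneic replicate 3 was the highest of its group, and it was called in that fit too (adjusted p = 0.019, and 1.5e-05 to 0.11 across the alternative settings). MiR-652 was on the myeloid list with miR-223. Its scaled signal (log2) was -4.60, -5.21 and -4.51 on the syngeneic arrays, of which 2 detected it, and between -3.81 and -3.78 on the allograft arrays, a log2 fold change of 0.97 (standard error 0.22, adjusted p = 0.0071).

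MiR-155 and miR-146a are both induced by NF-κB, and miR-146a lowers the adaptors TRAF6 and IRAK1 of Toll-like receptor signaling. MiR-155 (Mir155, chr16:84714140-84714204, + strand, within Mir155hg) was not well above background on any syngeneic array and lay at the floor on all 3. On the allograft arrays it was detected 3 times, at -4.44, -4.05 and -3.60. With the scaling used, miR-155 was at least 1.78-fold higher in the allografts. This is a bound because the syngeneic arrays gave no level above the lowest detected signal. The limma adjusted p of 0.0076 belongs to the log2 fold change of 1.18 obtained with the floor. The bound is not a lower limit across the settings, since with normexp the log2 fold change was -0.076. Of the 2 probes of miR-155, 1 rose. MiR-146a was detected on all 6 arrays, at -3.94, -3.91 and -3.75 on the syngeneic arrays and -3.32, -2.62 and -2.52 on the allograft arrays. These did not overlap, and the log2 fold change came to 1.05 (standard error 0.21; adjusted p = 0.0071, and 0.00022 to 0.86 across the alternative settings). For miR-146a the call was also lost with normexp (0.043), with no filter on dim miRNAs and with only the 2 groups in the fit. The block gave 1.18 for miR-155 and 0.93 for miR-146a, and neither was called with it. MiR-21, the third tested member of the NF-κB list, had 4.31, 4.77 and 5.23 on the syngeneic arrays and 5.29, 4.99 and 5.45 on the allograft arrays. The groups overlapped, the log2 fold change of 0.48 was not called (adjusted p = 0.14), and within the second slide it was 0.02.

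**Figure D2:**
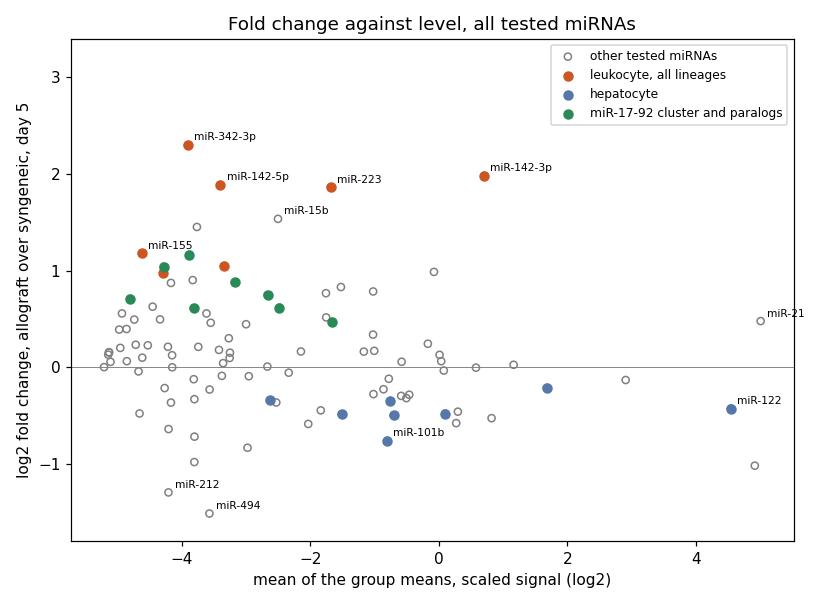
Log2 fold change of the allografts over the syngeneic grafts (y axis) against the mean of the group means of the scaled signal (log2, x axis), 1 point for each of the 103 tested miRNAs, with the leukocyte, hepatocyte and miR-17-92 lists in color. The 7 leukocyte points lie between 0.97 and 2.30 over a wide range of levels, and the 8 hepatocyte points lie below 0.

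The hepatocyte list held 11 miRNAs, of which 8 were tested and detected on all 6 arrays. Of these 8, 4 were called lower (miR-101b, miR-194, miR-148a and miR-122). The log2 fold changes of all 8 were negative, from -0.76 to -0.21 (median -0.45). Of all 103 tested miRNAs, 6.80% were called lower and 42 had negative log2 fold changes. By limma 0 members were called lower with the 75th percentile over all mouse miRNAs (1 had an unadjusted p under 0.05), without scaling (0), with no filter on dim miRNAs (4) or with only the 2 groups in the fit (4), and the adjusted t-test gave 0 too (3). Without scaling between arrays 7 of the 8 were positive, and with quantile normalization 1 was. Relative to the median of all tested miRNAs, the list's median was -0.58 with the scaling used, -0.46 without scaling and -0.14 with normexp. The summed scaled signal of the list, on the linear scale, was 31.7 to 38.0 on the syngeneic arrays and 23.3 to 27.6 on the allograft arrays. Most of this sum on each array came from miR-122. In the fit with the slide all 8 were negative as well, with a median of -0.69, and 2 were called. The median of all tested miRNAs in that fit was -0.09, and 58 of the 103 were negative. Syngeneic replicate 3, the reference within the second slide, was the highest of its group for both miRNAs called, miR-194 and miR-148a. The number called lower was 1 without allograft replicate 1 or replicate 3, 2 without allograft replicate 2 or syngeneic replicate 3, and 2 without the noisier array of day 100.

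MiR-122, known for its part in hepatic lipid metabolism, had a scaled signal (log2) of 4.66, 4.72 and 4.88 on the syngeneic arrays and 4.14, 4.42 and 4.42 on the allograft arrays. Every allograft array lay below every syngeneic array. This was a log2 fold change of -0.43 (standard error 0.15), close to the threshold (adjusted p = 0.0497), and the call was lost when any of the 6 arrays was left out (adjusted p up to 0.20, and 0.016 to 1.0 across the alternative settings). MiR-194, encoded beside miR-192 on chromosome 19 (Mir194-2, chr19:6264643-6264728, + strand) and at another locus on chromosome 1, stood at -0.55, -0.55 and -0.27 on the syngeneic arrays. On the allograft arrays it stood at -0.95, -0.77 and -1.13, a log2 fold change of -0.50 (standard error 0.14, adjusted p = 0.021). The call was lost without allograft replicate 1 or 3 (adjusted p up to 0.081, and 0.0061 to 0.93 across the alternative settings), and it held within the second slide (-0.69). MiR-192 itself stood at 1.61, 1.80 and 1.94 on the syngeneic arrays and 1.49, 1.55 and 1.67 on the allograft arrays. These overlapped, and its log2 fold change of -0.21 was not called (adjusted p = 0.26).

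MiR-148a, known to repress DNA methyltransferases, stood at 0.07, 0.26 and 0.68 on the syngeneic arrays and at -0.14, -0.15 and -0.14 on the allograft arrays, which were within 0.01 of each other. Its log2 fold change came to -0.48 (standard error 0.16, adjusted p = 0.0495) and came to -0.83 when the slide was a block (adjusted p = 0.019, and 0.019 to 0.92 across the alternative settings). Without the block the call was lost when any allograft array, syngeneic replicate 2 or 3, or replicate 1 of day 100 was left out (adjusted p up to 0.12), and the log2 fold change was -0.31 without syngeneic replicate 3. MiR-101b, which with miR-101a is known to repress the histone methyltransferase EZH2, stood at -0.66, -0.31 and -0.30 on the syngeneic arrays and -1.25, -1.25 and -1.05 on the allograft arrays. The groups stood apart, with a log2 fold change of -0.76 (standard error 0.19, adjusted p = 0.0091), and the call held when each array was left out in turn. MiR-101a had a log2 fold change of -0.49 (standard error 0.22) and was not called (adjusted p = 0.14), with arrays at -1.66, -1.09 and -1.06 against -1.75, -1.89 and -1.63 that overlapped.

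Outside the hepatocyte list, 3 more miRNAs were called lower. MiR-30a (Mir30a, chr1:23272269-23272339, + strand) stood at 0.36, 0.56 and 0.75 on the syngeneic arrays and between -0.05 and 0.00 on the allograft arrays. This was a log2 fold change of -0.58 (standard error 0.14, adjusted p = 0.0088), -0.78 within the second slide, and it was called in both fits and with each array left out. Syngeneic replicate 3, the reference within the second slide, was the highest of its group for miR-30a. All 5 tested members of the miR-30 family had negative log2 fold changes, from -0.59 to -0.09 (median -0.45), whereas 3 of the 5 were positive without scaling. Of the 5, 1 was called lower. Of all 103 tested miRNAs, 6.80% were called lower and 42 had negative log2 fold changes. MiR-202-3p, best known from the gonads, fell by 0.98 on the log2 scale (standard error 0.30, adjusted p = 0.030), from -3.90, -2.71 and -3.33 to -3.99, -4.43 and -4.47, where 2 of the 3 allograft arrays detected it. MiR-212, which shares a hairpin cluster with miR-132, was detected on 2 of 3 syngeneic arrays and stood at -4.77, -2.23 and -3.68 on the syngeneic arrays and -5.00, -5.21 and -4.36 on the allograft arrays. These overlapped, and its log2 fold change of -1.30 (standard error 0.44, adjusted p = 0.0495) was -0.63 without syngeneic replicate 2. Both miR-202-3p and miR-212 lost their call without syngeneic replicate 2 or 3 or allograft replicate 2 (adjusted p up to 0.15, with 0.41 the highest over all alternatives). The call was also lost without allograft replicate 3 for miR-202-3p, and without allograft replicate 1 or replicate 1 of day 100 for miR-212.

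**Figure D3:**
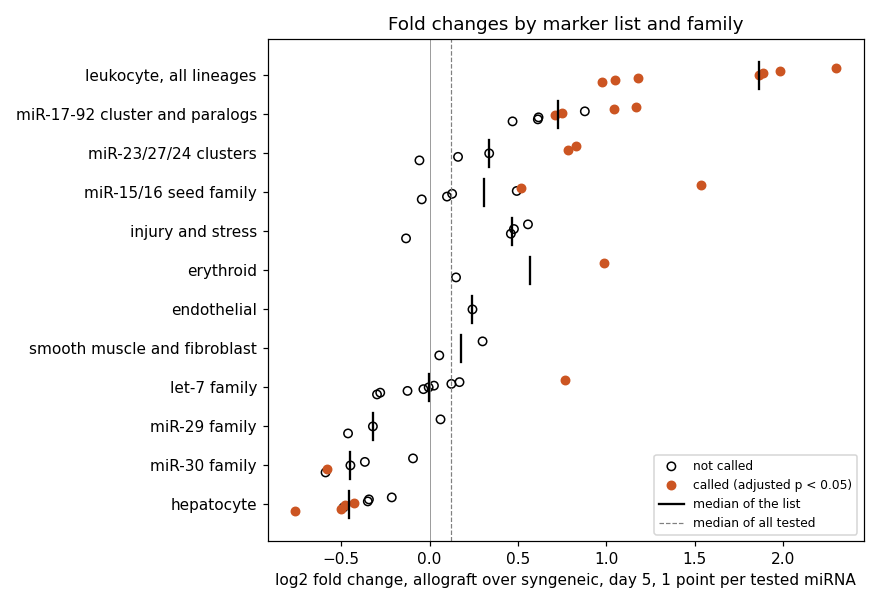
Log2 fold change of each tested miRNA by list, with called miRNAs filled and the median of each list as a vertical bar. The dashed line is the median of all tested miRNAs (0.12); the leukocyte list has its median at 1.86 and the hepatocyte list at -0.45.

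The miR-17-92 cluster and its paralogs are targets of MYC and are known from dividing cells. Of the 13 names, 8 were tested and 4 were called higher (miR-20b, miR-25, miR-20a and miR-93), against 18.4% of all tested miRNAs. Of the names not tested, miR-17, miR-106a, miR-18b and miR-363 were not detected on any of the 6 arrays, and miR-18a was detected on 2 allograft arrays only. The log2 fold changes of all 8 were positive, from 0.47 to 1.16 (median 0.73). For all 103 tested miRNAs the median was 0.12, and 61 were positive. Of the 8, 4 were detected on all syngeneic arrays, and the rest passed the filter through allograft groups. With miRNAs detected on all 15 arrays, 2 members were tested and 0 were called by limma (1 had an unadjusted p under 0.05). The number called was 1 with the 75th percentile over all mouse miRNAs, 2 with quantile normalization or the floor divided by 4, and 7 without scaling. By limma 0 were called with no filter on dim miRNAs (6 had an unadjusted p under 0.05), with only the 2 groups in the fit (5) or with normexp (0), where 4 of the 8 were negative. With the slide as a block the 8 remained positive with a median of 0.34, against -0.09 for all tested miRNAs. In that fit 0 were called by limma (2 had an unadjusted p under 0.05, against 30 of all 103 tested miRNAs). The calls came from all 3 clusters of the group, with miR-20a from chromosome 14, miR-20b from chromosome X, and miR-25 and miR-93 from within the span of Mcm7 on chromosome 5 (chr5:138165321-138165404 and chr5:138165523-138165610, - strand). Without syngeneic replicate 3 the number called was 7, and it was 3 to 5 with each other array left out.

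MiR-20b was detected on 1 syngeneic array and stood at -4.80, -4.57 and -4.02 in that group, against -3.26, -3.45 and -3.20 on the allograft arrays. The groups did not overlap, and the log2 fold change came to 1.16 (standard error 0.25, adjusted p = 0.0071). MiR-20a was detected on all 6 arrays, at -3.35, -3.13 and -2.64 against -2.19, -2.44 and -2.24, a log2 fold change of 0.75 (standard error 0.22, adjusted p = 0.022). Its call was lost without syngeneic replicate 1 or 2 or allograft replicate 1 or 3 (adjusted p up to 0.076, and 0.0044 to 0.68 across the alternative settings). MiR-25 and miR-93 were each detected on 1 of 3 syngeneic arrays, so that their log2 fold changes of 1.04 (adjusted p = 0.0071) and 0.71 (adjusted p = 0.0088) rest on values near the floor. MiR-106b, from the same Mcm7 span, was higher on every allograft array than on any syngeneic array, with a log2 fold change of 0.88 that was not called (adjusted p = 0.066).

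In the miR-15/16 family, which is known to restrain the cell cycle and to repress BCL2, miR-15b rose most. It stood at -3.11, -3.89 and -2.81 on the syngeneic arrays and -1.88, -1.66 and -1.67 on the allograft arrays, all above the syngeneic ones. This was a log2 fold change of 1.54 (standard error 0.25, adjusted p = 0.0011), or 2.90-fold, and 1.07 within the second slide, where it was not called (adjusted p = 0.064, and 6.1e-05 to 0.11 across the alternative settings). MiR-16, which is encoded both beside miR-15b within Smc4 (Mir15b, chr3:69009772-69009835, and Mir16-2, chr3:69009902-69009996, + strand) and on chromosome 14, rose by 0.51 (standard error 0.16, adjusted p = 0.030). It stood at -2.06, -2.25 and -1.73 against -1.53, -1.37 and -1.59. This call was lost without syngeneic replicate 1 or 2 or allograft replicate 1 or 2 (adjusted p up to 0.10, and 0.0036 to 0.44 across the alternative settings). MiR-15a had -0.31, -0.01 and 0.15 on the syngeneic arrays and 0.10, 0.04 and 0.08 on the allograft arrays, which overlapped (log2 fold change 0.13, adjusted p = 0.52). Of the 6 family members tested, 2 were called higher, against 18.4% of all tested miRNAs, and the median was 0.31.

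The cluster of miR-23a, miR-27a and miR-24-2 lies on chromosome 8 (Mir23a, chr8:84208518-84208592; Mir27a, chr8:84208672-84208758; Mir24-2, chr8:84208815-84208921; + strand), and its relatives miR-27b and miR-24-1 lie within Aopep on chromosome 13. MiR-27a stood at -2.16, -2.05 and -1.61 on the syngeneic arrays and -1.04, -1.22 and -1.07 on the allograft arrays. With no overlap, it rose by 0.83 (standard error 0.17, adjusted p = 0.0071). MiR-23a stood at -1.38, -1.86 and -1.0 against -0.69, -0.56 and -0.65, a rise of 0.78 (standard error 0.20, adjusted p = 0.012). MiR-24, whose mature sequence comes from both clusters, had a log2 fold change of 0.34 that was not called (adjusted p = 0.11), although its arrays did not overlap. MiR-27b (-0.06, adjusted p = 0.82) and miR-23b (0.16, adjusted p = 0.52) were not called. With the slide as a block, miR-27a was at 0.50 and miR-23a at 0.37, and neither was called.

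Of the 9 let-7 family members tested, 1 was called higher, against 18.4% of all tested miRNAs. Let-7i (Mirlet7i, chr10:122985640-122985724, - strand) stood at -2.27, -2.41 and -1.74 on the syngeneic arrays and -1.49, -1.41 and -1.22 on the allograft arrays, and rose by 0.77 (standard error 0.18, adjusted p = 0.0076). The family's log2 fold changes ran from -0.30 to 0.77 (median -0.01), and all 9 were positive without scaling.

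Further families were measured in which no member was called by limma and none had an unadjusted p under 0.05 without the block. The miR-29 family, known to repress collagens, had log2 fold changes of 0.06 for miR-29a, -0.46 for miR-29b and -0.32 for miR-29c. MiR-26a was at -0.23 and miR-26b at -0.12, miR-103 at 0.18 and miR-107 at 0.16, miR-99a at 0.10 and miR-125b-5p at 0.01, and miR-221 at 0.49. Standard errors of these values lay between 0.16 and 0.30, and the signs of several changed with the scaling or when the slide was a block. In that fit the medians were -0.61 for the miR-29 family and -0.47 for the miR-26 family, against -0.09 for all tested miRNAs. By limma with the block, an unadjusted p under 0.05 was reached by 2 of 3 and 2 of 2 members, against 30 of all 103 tested miRNAs. The adjusted p was 0.094 for miR-29c and 0.12 for miR-29b. Syngeneic replicate 3, the reference within the second slide, was the highest of its group for every member of both families. Of the further members of families named above, miR-19a was at 0.61 and miR-19b at 0.47, miR-30b at -0.09 and miR-30c at -0.45, and let-7a at -0.01, let-7b at -0.28 and let-7c at -0.30.

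The ratio of 2 miRNAs on 1 array does not depend on the scale factor of that array when both signals lie above the floor. For this reason 9 pairs of related miRNAs were compared as log2 ratios, each set to a mean of 0 over the syngeneic arrays. The pairs were chosen after their values were seen and carry no test. For miR-27a over miR-27b, which differ at 1 of 21 bases, the ratio was -0.19, 0.04 and 0.15 on the syngeneic arrays and 1.15, 0.71 and 0.80 on the allograft arrays. The mean difference was 0.89, and 0.74 against syngeneic replicate 3 on the same slide. The ratio of let-7i over let-7g, which differ at 2 of 22 bases, was -0.01, 0.00 and 0.01 on the syngeneic arrays and 0.84, 0.57 and 0.99 on the allograft arrays. For miR-15b the difference was 1.41 over miR-15a and 1.02 over miR-16, for miR-23a over miR-23b 0.62, for miR-20b over miR-20a 0.42, and for miR-101b over miR-101a -0.28. The groups did not overlap in these 7 ratios, which the choice of pairs had favored. The ratio of miR-30a over miR-30e differed by 0.01 and overlapped. That of the miR-142 arms overlapped as well, and on syngeneic replicate 1 it rests on miR-142-5p at the floor. The ratio of miR-20b over miR-20a rests in part on undetected signals, since 1 of 3 syngeneic arrays detected miR-20b. With normexp the log2 fold change of miR-20b was -0.058. Cross-hybridization between near-identical sequences was not tested.

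**Figure D4:**
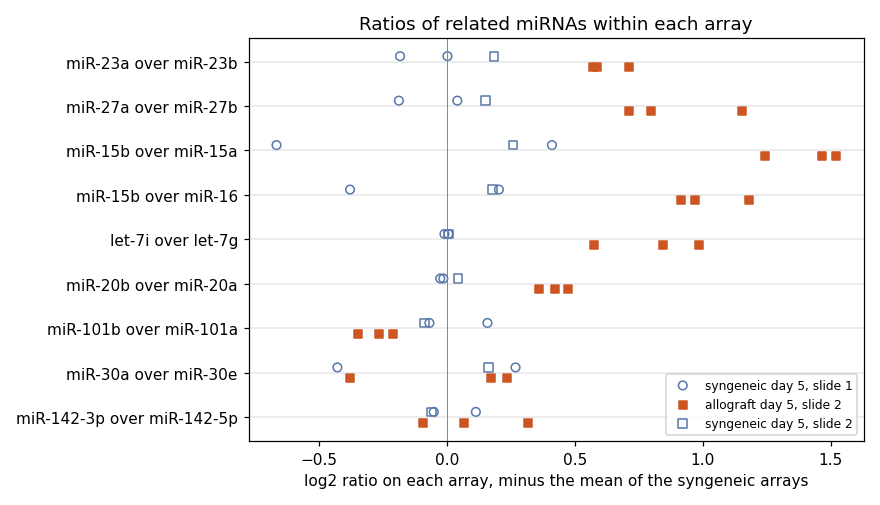
Log2 ratio of 9 pairs of related miRNAs on each array, minus the mean of the syngeneic arrays. Open symbols are syngeneic grafts (square on the second slide) and filled squares are allografts; in the upper 6 pairs all allograft arrays lie to the right of all syngeneic arrays, at differences of 0.42 to 1.41.

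The remaining miRNAs called higher were miR-188-5p, miR-7a and miR-451. MiR-188-5p was not well above background on any syngeneic array and was detected on all 3 allograft arrays, at -3.68, -3.10 and -2.34. The measured values of the groups overlapped, since syngeneic replicate 1 was at -3.47. With the syngeneic signals taken as no lower than the lowest detected signal, the group means differed by 2.47-fold. The call of miR-188-5p had an adjusted p of 0.022. This fold is not a lower limit across the settings, since with normexp the log2 fold change was -0.20. MiR-7a, known from neuroendocrine cells, was detected on 1 of 3 syngeneic arrays and had a log2 fold change of 0.87 (adjusted p = 0.022). The erythroid miR-451 stood at 0.16, -1.18 and -0.69 on the syngeneic arrays and 0.40, 0.05 and 0.80 on the allograft arrays, which overlapped, with a log2 fold change of 0.99 (standard error 0.34, adjusted p = 0.0495). MiR-144, from the same erythroid transcript, had 0.15 and was not called (adjusted p = 0.85). Each of the 3 calls was lost without allograft replicate 3 and without at least 2 other arrays (adjusted p up to 0.094 for miR-188-5p, 0.093 for miR-7a and 0.18 for miR-451, with 0.50, 0.44 and 0.27 the highest over all alternatives). These other arrays were syngeneic replicates 2 and 3 and allograft replicate 2 for miR-188-5p, syngeneic replicate 1 and allograft replicate 2 for miR-7a, and syngeneic replicates 2 and 3, allograft replicate 1 and replicate 1 of day 100 for miR-451.

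Markers of other cell types were read on the same arrays. The endothelial miR-126-3p had -0.39, -0.39 and -0.10 on the syngeneic arrays and -0.12, -0.02 and -0.01 on the allograft arrays, and its log2 fold change of 0.24 was not called (adjusted p = 0.18). Of 7 smooth muscle and fibroblast markers, 2 were tested and neither was called or had an unadjusted p under 0.05, among them miR-199b at 0.30 (adjusted p = 0.51). Of the 4 miRNAs on the list of injury and stress, 0 were called by limma, with miR-34a at 0.46 (adjusted p = 0.25) and miR-22 at -0.13 (adjusted p = 0.46), and 1 of them, miR-21, had an unadjusted p under 0.05. The summed scaled signal of the biliary list was 0.0466 to 0.145 in the syngeneic grafts and 0.0866 to 0.146 in the allografts, and 3 of its 6 members were detected on any array. None of the 6 muscle, 4 neuron and 4 pancreas markers was detected on any of the 6 arrays (0 detected in each list). The part of other cell types in the changes above was not tested.

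**Figure D5:**
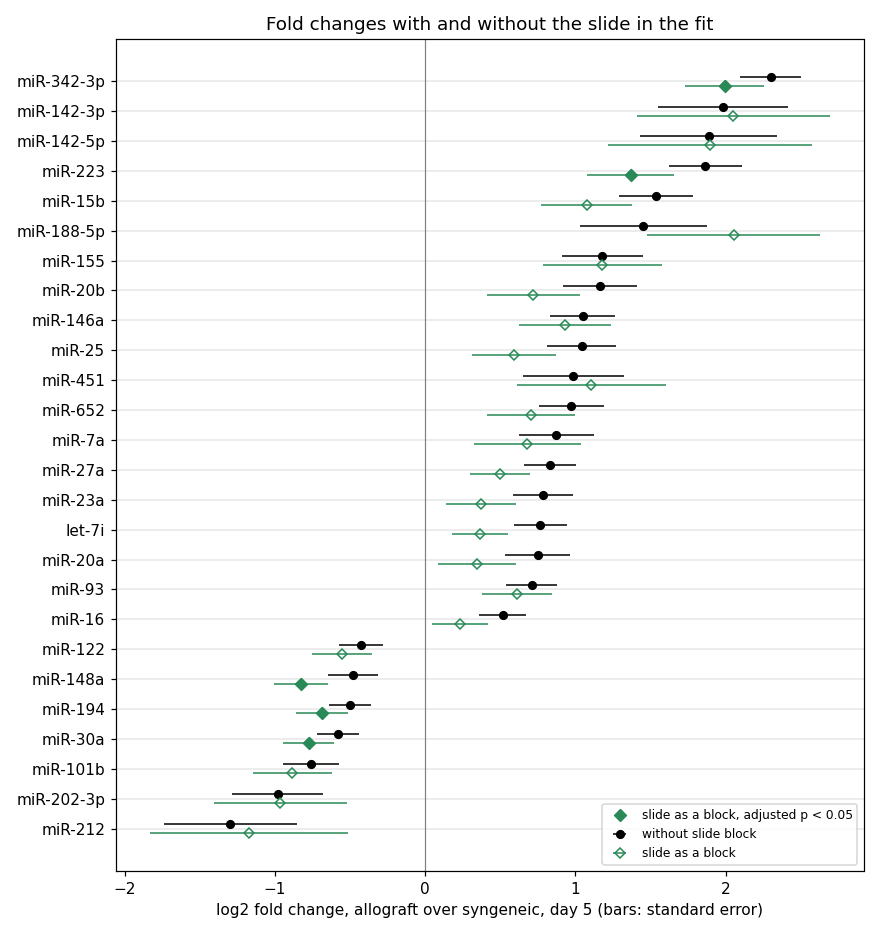
Log2 fold change with its standard error for the 26 called miRNAs without the slide (black circles) and with the slide as a block (green diamonds, filled where called). All 26 keep their sign; 5 diamonds are filled, and for miR-223 the value moves from 1.86 to 1.37.

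The allografts of day 5 were also compared with those of day 100, which lay on the same slide, so that a block for the slide leaves the log2 fold changes as they are and alters only their error. This comparison shares the 3 allograft arrays of day 5 with the one above, and 30 miRNAs were called (29.1%), with 22 higher (21.4%) and 8 lower (7.77%) on day 5. With the block 35 were called, 24 higher and 11 lower. The number was 16 without replicate 3 of day 5, 18 without replicate 1 of day 5 and 19 without the noisier replicate 1 of day 100. Of the 7 leukocyte miRNAs, 5 were higher on day 5 than on day 100, with log2 fold changes of 1.83 for miR-142-3p (adjusted p = 0.0090), 1.84 for miR-142-5p (0.011), 1.06 for miR-223 (0.0090), 1.00 for miR-155 (0.017) and 0.63 for miR-342-3p (0.034). MiR-146a (0.14, adjusted p = 0.68) and miR-652 (0.18, adjusted p = 0.55) were not called. Of the 8 miR-17-92 members, 6 were higher on day 5, among them miR-20b (1.5, adjusted p = 0.0030), miR-20a (1.19, adjusted p = 0.0030) and miR-19a (1.67, adjusted p = 0.0030). Of the 3 arrays of day 100, miR-19a was detected on 0, miR-20b and miR-155 on 1 and miR-20a on 2. Their differences thus rest in part on signals that were not detected. With normexp, 4 of all tested miRNAs were called higher on day 5 than on day 100 and 7 lower. MiR-21 was 1.23 higher on day 5 (adjusted p = 0.0030).

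Among other miRNAs called higher than in the syngeneic grafts, the log2 differences between day 5 and day 100 did not pass the threshold at 0.06 for miR-15b (adjusted p = 0.89), -0.10 for miR-23a (adjusted p = 0.75) and 0.18 for miR-27a (adjusted p = 0.47). Among those called lower, the difference was not called for miR-122 (-0.07, adjusted p = 0.75), miR-194 (-0.02, adjusted p = 0.92) or miR-30a (0.08, adjusted p = 0.72). MiR-101b was higher on day 5 than on day 100 by 0.80 (adjusted p = 0.0090) and miR-101a by 0.93 (adjusted p = 0.0095). Of the let-7 family, 3 members were lower on day 5 than on day 100, let-7c by a log2 difference of -0.96 (adjusted p = 0.0030), let-7b by -0.85 (adjusted p = 0.013) and let-7a by -0.65 (adjusted p = 0.037).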

How the data were processed

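The study hybridized RNA of 15 grafts to Agilent miRNA arrays. The authors deposited, per array, the intensity of each spot from Feature Extraction (version 9.5.1.1, per the file headers), background-subtracted, linear and not yet normalized between arrays. Control and outlier spots were left out, spots were averaged per probe, and the probes of a miRNA were summed. Each array was scaled by the 75th percentile of the 52 miRNAs that all 15 arrays detected. Values under a floor of 0.0270 were set to it, and log2 was taken. Changes of dim miRNAs therefore depend on the floor, at which 8.41% of the tested values of the 6 arrays lay. MiR-155, for instance, was 2.27-fold higher with the floor and at least 1.78-fold higher by the bound described below. Tests covered the 103 miRNAs that every array of some group detected. Limma (version 3.58.1, R 4.3.3) fitted 1 mean per group to all 15 arrays, which share the estimate of the spread, with Benjamini-Hochberg adjustment (threshold 0.05). All adjusted p-values are from this fit unless a block or an alternative is named. A bound ("at least") sets the allograft mean against the higher of the lowest detected signal and the probe's own signal on each syngeneic array. Log2 fold changes are allograft minus syngeneic.

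The miRNAs named are those called, those called with the slide as a block, those detected on 3 arrays of one group and 0 of the other, and the first 3 members of each list detected on all arrays of a group. Others are named after their values were seen. The members and lists were chosen with earlier results of these data known. Names are those of the array design, matched to RefSeq mature names by hand. No 2 arrays of a group held identical values. Alternatives were other scalings, probe summaries, a normexp correction (offset 50) of median intensities, filters, the floor divided by 4, the methods' t-test, trend and robust moderation, slide or replicate number as a block, only the groups compared, and each array left out. The fit was tested on simulated data. Python 3.11.15, numpy 2.4.6, pandas 2.3.3, scipy 1.17.1 and matplotlib 3.10.9 served the other steps. The authors' table of log2 values was not used here, and 10 viral miRNAs were not tested.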

Additional observations from a re-analysis of the deposited data

How the results depend on the processing

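The comparison with the syngeneic grafts was repeated under 25 alternative settings, 24 for miRNAs outside those detected on all 15 arrays. Of the 26 called miRNAs, 16 kept their sign in all of them and 16 kept their call whichever array was left out. The number called, 26, became 10 with the 75th percentile over all mouse miRNAs, 5 with normexp (2 higher), 5 with no filter on dim miRNAs (567 tested), 15 with miRNAs detected on all 15 arrays (52 tested), 1 with only the 2 groups in the fit, 2 by the methods' t-test once adjusted by Benjamini-Hochberg (26 before it) and 5 with slide as a block. The number was 18 to 27 in the other settings and 19 to 29 with 1 array left out. The percentage of calls that were higher, 73.1, was 91.7 with the brightest probe, 83.3 with the floor divided by 4 and 40 with normexp. Against day 100, the number called, 30, became 11 with the 75th percentile over all mouse miRNAs, 14 without scaling, 11 with normexp, 6 with no filter, 12 with miRNAs detected on all 15 arrays and 5 with the t-test after adjustment, and it was 16 to 29 with 1 array left out. The causes were not tested.

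With replicate number as a block, 25 miRNAs were called (21 higher and 4 lower) against the syngeneic grafts and 30 against day 100. Grafts with the same number share only that number: the correlations of their deviations were -0.12, -0.65 and -0.48, and none of the 3 correlated best with its own number (0 of 3).

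Signs changed as follows. Without scaling, the log2 fold changes were 0.11 for miR-122, 0.059 for miR-148a, 0.040 for miR-194, 0.052 for miR-101a, 0.32 for miR-192, 0.41 for miR-22, 0.31 for miR-26a, 0.42 for miR-26b, 0.078 for miR-29b, 0.22 for miR-29c, 0.45 for miR-30b, 0.091 for miR-30c, 0.53 for let-7a, 0.26 for let-7b and 0.24 for let-7c. With normexp they were -0.076 for miR-155, -0.20 for miR-188-5p, -0.058 for miR-20b, -0.17 for miR-25, -0.18 for miR-652, -0.20 for miR-7a, -0.24 for miR-93, -0.27 for miR-103, -0.13 for miR-107, -0.28 for miR-125b-5p, -0.25 for miR-144, -0.22 for miR-199b, -0.21 for miR-19a, -0.27 for miR-221, -0.20 for miR-34a and -0.28 for miR-99a. Quantile normalization gave 0.026 for miR-122, -0.039 for miR-107, -0.036 for miR-125b-5p, -0.017 for miR-144 and -0.050 for miR-99a. The slide as a block gave -0.23 for miR-103, -0.21 for miR-107, -0.53 for miR-125b-5p, -0.077 for miR-15a, -0.36 for miR-199b, -0.34 for miR-29a and -0.52 for miR-99a. Let-7a was at 0.018 with the 75th percentile over all miRNAs, 0.0069 with median scaling and 0.10 with the brightest probe, which also gave 0.0075 for miR-26b and 0.043 for miR-30b. MiR-125b-5p was at -0.030 with the total signal of the software and -0.00031 with the mean log2 of its probes. With 1 array left out, the log2 fold change ran from -0.27 to 0.20 for let-7a, -0.27 to 0.27 for miR-125b-5p, -0.21 to 0.26 for miR-29a, -0.45 to 0.58 for miR-144, -0.22 to 0.089 for miR-30b, -0.025 to 0.35 for miR-107, -0.18 to 0.40 for miR-99a and -0.25 to 0.056 for miR-26b.

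Dim miRNAs set the limits. Of the 19 miRNAs called higher, 9 were not detected on all syngeneic arrays, and their values rest on signals at or near the floor.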

Other observations

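The widest spread among the syngeneic arrays belonged to miRNAs with no call, which were picked here for that spread after their values were seen. MiR-494 stood at 0.16, -3.63 and -4.96 on the syngeneic arrays and between -4.38 and -4.30 on the allograft arrays. MiR-720, whose sequence is regarded as a fragment of a transfer RNA, stood at 3.49, 7.21 and 5.58 on the syngeneic arrays and 3.92, 3.54 and 5.75 on the allograft arrays. MiR-1224 stood at 2.66, 0.91 and -0.31 against 0.00, 0.31 and 1.36, and miR-689 at -2.11, -5.21 and -5.13 against -4.87, -4.89 and -2.69. Their log2 fold changes were -1.52 (standard error 0.91), -1.02 (standard error 0.76), -0.53 (standard error 0.56) and 0.00 (standard error 0.71), and the lowest of their adjusted p-values was 0.25.

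Of the miRNAs that were not called, 8 had arrays that did not overlap between the groups. Those with the allografts higher were miR-106b (log2 fold change 0.88), miR-140* (0.63), miR-210 (0.56), miR-221 (0.49) and miR-24 (0.34), and those with the allografts lower were miR-29c (-0.32), miR-30d (-0.37) and miR-345-5p (-0.37). MiR-210, a miRNA induced by hypoxia, was not detected on any syngeneic array and was detected on 2 allograft arrays.

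Of the 10 viral miRNAs on the array, 1 was detected on any of the 6 arrays.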
